A study of Mus musculus with 4 samples.

Results

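Glycolysis turns glucose into pyruvate, and 10 genes of that route were followed in RNA sequencing of cultured mouse mammary cells: the glucose transporter Slc2a1 and the enzymes Hk2, Pfkl, Aldoa, Tpi1, Gapdh, Pgk1, Eno1, Pkm and Ldha. They were chosen by gene symbol from a table of 54446 genes. The 10 symbols matched 11 entries, because a second gene, ENSMUSG00000114515, also carries the symbol Aldoa. It held 0.820, 1.05, 1.49 and 0.364 FPKM across the libraries, the last from 6 fragments, and was kept apart from the main Aldoa gene. All 10 main genes were above 0 in every library and so were among the 17787 genes compared.

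The study asked how baicalin, a flavonoid from Scutellaria roots, alters gene expression in mammary basal and luminal cells. Wild-type C57BL/6 mammary gland cells were sorted by FACS into basal and luminal fractions and grown in 3D in Matrigel, with DMSO or with 100 μM baicalin in the medium. A single library was sequenced for each of the 4 combinations of cell label and treatment, so no difference below has a replicate check and none was tested. Genotype, strain, sorting and culture were shared by all groups, and nothing in the sources used here says how many mice or wells lay behind a library.

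Levels are given as FPKM, the fragments on a gene divided by its exon length and by the depth of the library. Between 19356105 and 20648792 counted fragments lay behind each library. Changes are log2 ratios of FPKM + 1, which understate the change of low genes, and a gene was called as risen or fallen past a log2 change of 1. Ratios carry an exact Clopper-Pearson 95% interval on the fragments, which covers counting error only and leaves out the spread between cultures. A ratio of 2 such ratios carries a normal 95% interval on the log scale from the 4 fragment counts.

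The labels did not match the lineage markers. All 10 basal markers examined were higher in the libraries labelled luminal than in those labelled basal, with either treatment, and their summed level was 1761, 479, 5404 and 7199 FPKM in the order basal DMSO, basal baicalin, luminal DMSO and luminal baicalin, which is kept for every series of 4 values below. The basal keratin Krt5 stood at 128, 3.01, 2015 and 2415 FPKM. The other basal markers did not all follow it or the sum. With baicalin under the luminal label 5 of the 10 were higher and 5 lower than with DMSO, a median log2 change of -0.16. Under the basal label 1 was higher and 9 lower, a median of -0.65. Of 12 luminal markers, 2 were higher under the luminal label, and their sums were 4527, 3121, 1453 and 1252 FPKM. Summed markers of other cells were low, at 2.60 to 10.4 FPKM for fibroblasts, 5.41 to 53.6 for immune cells, 0.876 to 3.46 for endothelium and 0.163 to 16.1 for adipocytes. Within the immune list Cd68, a lysosomal protein of macrophages and other cells, gave 7.49, 51.5, 4.44 and 13.7 FPKM, while 4 of the 6 immune markers were at 0 in the basal baicalin library. The libraries are called by their labels throughout. Both marker sums differed between labels and between treatments within a label, and their part in the differences reported here was not tested. In such bulk libraries, fewer cells of a type and less RNA per cell cannot be told apart.

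Glucose enters mammary epithelium mainly through GLUT1, encoded by Slc2a1, and is phosphorylated by hexokinase, which traps it in the cell. Phosphofructokinase commits the sugar to glycolysis, aldolase and triosephosphate isomerase split and balance it into triose phosphates, and the enzymes from Gapdh to Pkm then yield ATP, NADH and pyruvate. Lactate dehydrogenase reduces pyruvate to lactate and so regenerates NAD+. The gland is a heavy user of glucose, since it is also the precursor of milk lactose.

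With baicalin, Slc2a1, Hk2 and Aldoa were higher than with DMSO under both labels, while the later enzymes other than Gapdh were lower under the basal label and divided under the luminal label. The log2 changes of Slc2a1, Hk2, Pfkl and Aldoa were 0.14 to 0.83 under the basal label and 0.07 to 1.39 under the luminal label, where that of Pfkl, the lowest, was within counting error. Of all genes tested, 50.9% were higher with baicalin under the basal label and 45.6% under the luminal label. Tpi1, Pgk1, Eno1, Pkm and Ldha, 5 of 5, lay below their DMSO level under the basal label, at -0.88 to -0.34. Under the luminal label 3 of these 5 were lower and 2 higher, at -0.42 to 0.13. Gapdh differed from these later enzymes, at 2.25 and 0.53, and it is the member with the most near-identical copies. The division between Aldoa and Tpi1 was not planned and lies where the basal signs change. The counts on each side of it therefore only describe the values and lend them no support.

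Few of these differences passed the threshold. Under the basal label 1 of 10 members rose, Gapdh, and none fell, where 2.15% of all genes tested rose and 3.33% fell. Under the luminal label 1 of 10 rose, Hk2, and none fell, against 2.37% and 1.59% of all genes. Among the 6643 genes at 5 FPKM or more in every library, 1.97% rose and 1.84% fell under the basal label, and 2.21% and 0.692% did so under the luminal label. At a threshold of 0.5 on the log2 scale, 3 members were higher and 2 lower under the basal label, against 9.71% and 9.54% of all genes. Under the luminal label 3 were higher and none lower, against 8.01% and 8.29%. The median log2 change of the members was -0.10 under the basal label and 0.12 under the luminal label, and that of all genes was 0.01 and -0.02. Without Gapdh the basal median was -0.34.

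**Figure D1:**
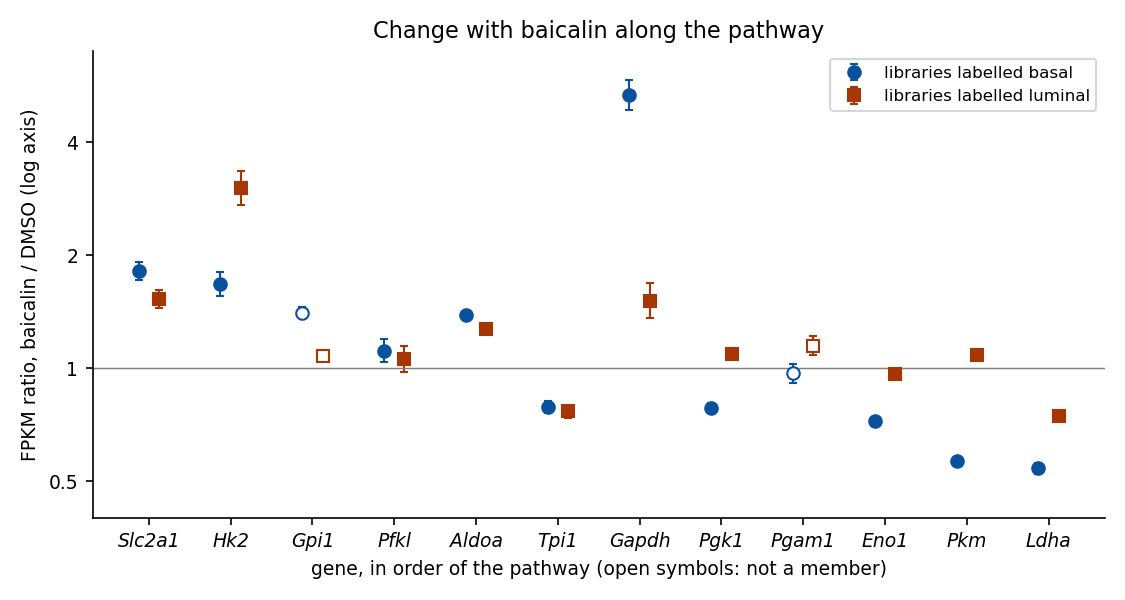
FPKM ratio of baicalin to DMSO (vertical, log axis) for the members and for the other main enzymes Gpi1 and Pgam1 (open symbols), in pathway order, in the libraries labelled basal (circles) and luminal (squares). Bars are 95% counting intervals from 1 library per condition. Slc2a1, Hk2 and Aldoa lie above 1 under both labels, and the bars of luminal Pfkl and basal Pgam1 cross 1. The other basal symbols from Tpi1 on lie below 1 apart from Gapdh at 5.34, and the luminal Hk2 stands at 3.01.

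The promoters of Hk2, Pgk1 and Ldha are shown because under the basal label Hk2 lay above its DMSO level and Pgk1 and Ldha below theirs, because no annotated exon base falls in the stretch, and because each holds the core of the hypoxia response element, the site that HIF-1 binds. The sequences are the 250 bases before the RefSeq start on GRCm38.p6, 5′ to 3′ on the strand of the gene, at chr6:82774455-82774704 on the minus strand for Hk2, chrX:106186850-106187099 on the plus strand for Pgk1 and chr7:46845554-46845803 on the plus strand for Ldha. The Ldha stretch lies within the annotated gene, in no exon, because other transcripts start further upstream. Capitals mark ACGTG or GCGTG on either strand, read as CACGT or CACGC on the printed strand.
Hk2: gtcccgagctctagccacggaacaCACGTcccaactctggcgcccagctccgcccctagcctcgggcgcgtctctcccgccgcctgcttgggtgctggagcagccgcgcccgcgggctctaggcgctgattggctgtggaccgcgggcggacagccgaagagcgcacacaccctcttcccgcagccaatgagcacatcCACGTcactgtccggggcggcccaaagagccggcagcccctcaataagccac
Pgk1: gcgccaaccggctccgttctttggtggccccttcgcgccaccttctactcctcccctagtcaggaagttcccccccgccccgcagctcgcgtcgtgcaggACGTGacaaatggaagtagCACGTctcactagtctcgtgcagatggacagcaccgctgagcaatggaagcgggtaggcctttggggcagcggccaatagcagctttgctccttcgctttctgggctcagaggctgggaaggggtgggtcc
Ldha: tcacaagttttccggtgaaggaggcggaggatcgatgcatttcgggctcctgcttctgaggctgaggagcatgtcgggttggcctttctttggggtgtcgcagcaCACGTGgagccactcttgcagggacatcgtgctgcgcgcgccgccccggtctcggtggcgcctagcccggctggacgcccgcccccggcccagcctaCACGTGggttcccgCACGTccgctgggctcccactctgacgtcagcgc

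In Hk2 the cores ended 221 and 47 bases before the start, and in Pgk1 145 and 126 bases before it. Ldha held the core at 140, 139, 43, 42 and 29 bases. The first pair and the next pair are each 1 palindrome, the E-box CACGTG, which holds ACGTG on both strands and is also bound by MYC. Of the 10 members, all of which matched a RefSeq promoter, 8 held ACGTG or GCGTG in this stretch, and so did 38.6% of 32851 mouse promoters. ACGTG was present in 5 members, Slc2a1, Hk2, Aldoa, Pgk1 and Ldha, and in 16.6% of promoters. GCGTG was found in 4 members and 28.2% of promoters, and the E-box CACGTG in 1 member and 6.02%. The GC box GGGCGG occurred in 8 members and 32.7% of promoters. TATAAA, TGACNNNGC and TGACTCA occurred in none of the 10 members, and in 12.4%, 10.2% and 4.46% of promoters. Both strands were searched for every motif. For each member 1 start was taken, that with the most annotated transcript starts nearby, while the 32851 promoters were not reduced to 1 per gene. Annotated exons covered 245 of the 250 bases for Eno1, 208 for Pkm and 138 for Tpi1, and 76 or fewer for the other members. Slc2a1, Hk2 and Aldoa, higher with baicalin, and Pgk1 and Ldha, lower under the basal label, all held the ACGTG letters.

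Slc2a1 (ENSMUSG00000028645, chr4:119108711-119137983, plus strand) stood at 27.6, 49.9, 30.1 and 46.1 FPKM. Both baicalin libraries were above both DMSO libraries. The ratio of baicalin to DMSO was 1.81 (1.71 to 1.92) under the basal label and 1.53 (1.45 to 1.62) under the luminal label, log2 changes of 0.83 and 0.60 that stayed under the threshold. Among the sugar transporters read as an alternative route, Slc2a3 held 1.13% or less of the summed Slc2a1 and Slc2a3 level in every library.

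Hk2 (ENSMUSG00000000628, chr6:82725025-82774454, minus strand), the inducible hexokinase, was at 10.01, 16.8, 4.22 and 12.7 FPKM. The luminal DMSO library was the lowest of the 4, and the luminal baicalin library was above the basal DMSO library. Hk2 rose 3.01-fold (2.72 to 3.34) under the luminal label, a log2 change of 1.39 from 488 to 1568 fragments. Under the basal label the ratio was 1.68 (1.56 to 1.80), a log2 change of 0.69. The more abundant hexokinase Hk1 gave 39.0, 35.3, 23.7 and 27.1 FPKM, so that Hk2 made up 20.4, 32.2, 15.1 and 31.9% of the summed hexokinase level. The share was larger in both baicalin libraries than in either DMSO library.

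Pfkl (ENSMUSG00000020277, chr10:77986947-78010083, minus strand), the liver-type phosphofructokinase, differed little between libraries, at 10.5, 11.7, 8.96 and 9.49 FPKM. Its ratio was 1.11 (1.04 to 1.20) under the basal label. Under the luminal label it was 1.06 (0.978 to 1.15), a difference not detectable at this depth. Pfkl held 38.7, 44.9, 27.0 and 29.8% of the phosphofructokinase level, the largest share of the 3 genes under the basal label and the smallest under the luminal label, where Pfkp led with 37.2 and 40.2%. With luminal baicalin Pfkl and Pfkm, at a ratio of 0.989 (0.900 to 1.09), were within counting error.

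Aldoa (ENSMUSG00000030695, chr7:126795234-126800751, minus strand), which cleaves fructose-1,6-bisphosphate, stood at 171, 237, 144 and 183 FPKM. It was highest in the basal baicalin library, and both baicalin libraries were above both DMSO libraries. The ratios were 1.38 (1.35 to 1.42) and 1.27 (1.24 to 1.31), log2 changes of 0.47 and 0.35. Its relative Aldoc was at 11.0, 10.8, 17.0 and 5.97 FPKM and fell under the luminal label, by 1.37 on the log2 scale. Aldoa was 8.48 times Aldoc per length in the luminal DMSO library and 30.7 times in the luminal baicalin library, against 15.6 and 22.0 times under the basal label.

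**Figure D2:**
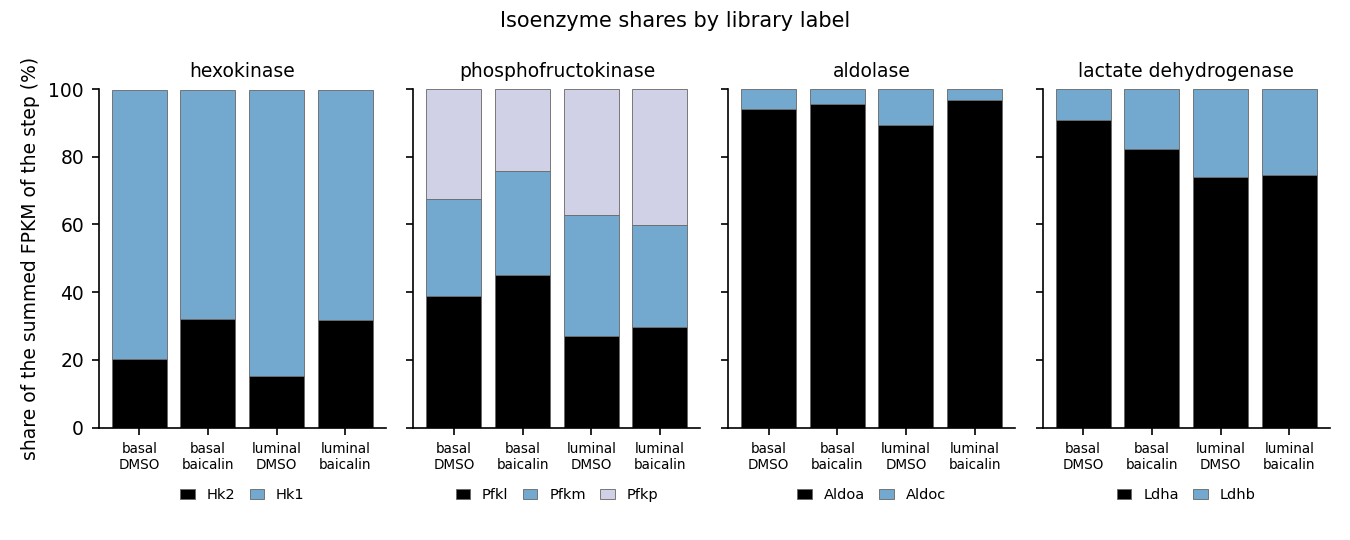
Share of each isoenzyme gene in the summed FPKM of its step (vertical, percent) for hexokinase, phosphofructokinase, aldolase and lactate dehydrogenase in the 4 libraries, named by label and treatment. Members are black, and genes under 0.2% of a step are not drawn. The black part of hexokinase, Hk2, is larger in both baicalin bars, 32.2 and 31.9%, and that of lactate dehydrogenase, Ldha, is largest with basal DMSO, at 90.9%.

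Tpi1 (ENSMUSG00000023456, chr6:124810586-124814296, minus strand), which interconverts the triose phosphates, was at 126, 99.8, 103 and 79.0 FPKM. It was lower with baicalin under both labels by nearly the same factor, with ratios of 0.789 (0.762 to 0.818) and 0.769 (0.739 to 0.800). The difference between the log2 changes was -0.04, a ratio of ratios of 0.974 (0.924 to 1.03). It was also lower under the luminal label with either treatment.

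Gapdh (ENSMUSG00000057666, chr6:125161715-125166467, minus strand), which makes the NADH of the pathway, was at 6.52, 34.8, 6.76 and 10.2 FPKM, from 535, 2916, 541 and 873 fragments. The basal baicalin library stood apart from the other 3. Gapdh rose 5.34-fold (4.86 to 5.86) under the basal label, a log2 change of 2.25, and the luminal ratio was 1.51 (1.36 to 1.69), a log2 change of 0.53. These levels lay far below the neighbouring steps, Tpi1 at 79.0 to 126 FPKM and Pgk1 at 132 to 190 FPKM.

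Gapdh has the most copies of the members. At 95% identity over at least 200 bases, 127 other annotated genes matched its transcripts, 122 of them pseudogenes, and 87 had fragments in the table. They matched 1278 of its 4133 exon bases, and between 50 and 100% of each of its 6 coding transcripts. Of the 2855 unmatched exon bases, 599 belong to a coding transcript and 2256 to none, as in the 4 transcripts that keep an intron. How fragments that map to several genes were counted is not given in the sources used here, nor is the place of the counted fragments within the gene, so the level of Gapdh mRNA is uncertain. The copies together held 676, 808, 570 and 690 fragments, ratios of 1.17 and 1.14 with baicalin. Summed with them, Gapdh was 3.01-fold higher under the basal label and 1.32-fold higher under the luminal label, log2 changes of 1.53 and 0.38.

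No copy was found for Slc2a1, Hk2 and Pfkl. Among the rest, matched exon bases ranged from 8.42% of Aldoa to 56.2% of Pgk1, and Pgk1, Eno1 and Pkm had a larger share matched than the 30.9% of Gapdh. Apart from Gapdh, the copies held at most 3.15% of the summed fragments of a member in any library, the most for Eno1, whose list includes its relative Eno1b. Fragments that map to several genes, if left out of the count, would be missing from member and copy alike. The small share therefore does not show how far the levels of Pgk1, Eno1, Pkm and the other matched members were affected.

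**Figure D3:**
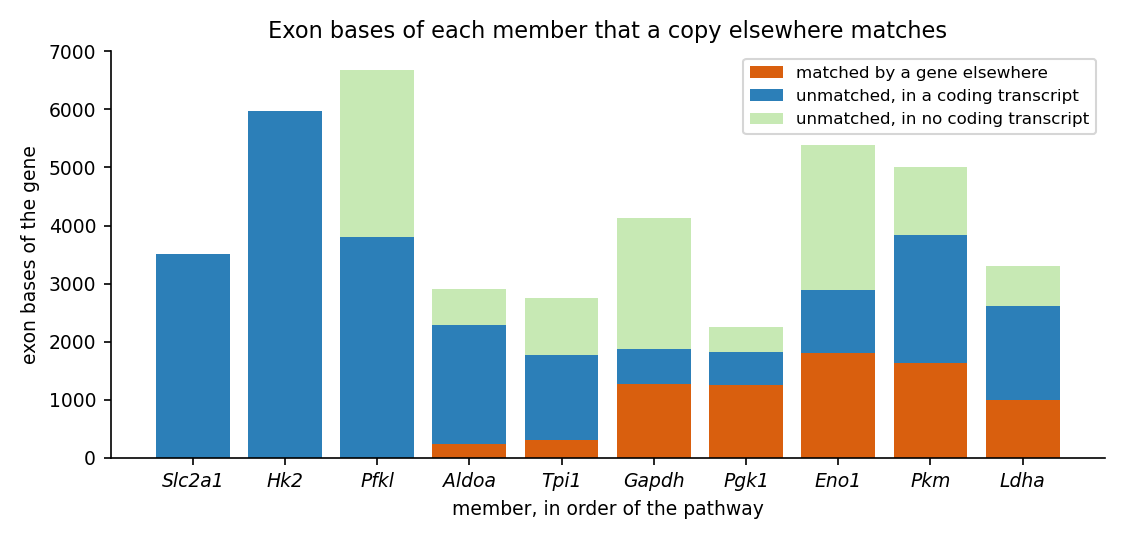
Exon bases of each member (vertical, bases) that another annotated gene matches at 95% identity (orange), and unmatched bases inside (blue) or outside (green) coding transcripts, in pathway order. Slc2a1, Hk2 and Pfkl have no matched base, and Gapdh has 599 unmatched bases in coding transcripts and 2256 outside them.

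Pgk1 (ENSMUSG00000062070, chrX:106187100-106203699, plus strand), the first ATP-yielding enzyme of the pathway, was at 190, 149, 132 and 144 FPKM. The basal DMSO library was the highest, and the luminal DMSO library the lowest. The ratio was 0.785 (0.760 to 0.810) under the basal label and 1.09 (1.06 to 1.13) under the luminal label, log2 changes of -0.35 and 0.13. The change with baicalin thus had opposite signs under the labels.

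Eno1 (ENSMUSG00000063524, chr4:150236721-150248879, plus strand), the enolase that forms phosphoenolpyruvate, stood at 193, 140, 170 and 164 FPKM. The basal baicalin library was the lowest, and the luminal libraries were close to each other. Ratios were 0.726 (0.711 to 0.741) and 0.967 (0.947 to 0.987). Eno1 made up 92.4 to 93.5% of the enolase level in all 4 libraries.

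Pkm (ENSMUSG00000032294, chr9:59656368-59679375, plus strand), pyruvate kinase of the muscle type, was the most abundant member in every library, at 456, 258, 343 and 373 FPKM. It ranked 51st, 121st, 84th and 79th among all genes. The basal baicalin library was the lowest, and the basal DMSO library the highest. Pkm was 1.77-fold lower with baicalin under the basal label, a ratio of 0.566 (0.558 to 0.575) and a log2 change of -0.82. Under the luminal label the ratio was 1.09 (1.07 to 1.10), a log2 change of 0.12. The gene counts the PKM1 and PKM2 splice forms together, so the table does not tell them apart. Gm49759, an unclassified gene on the same strand that overlaps Pkm, was at 40.5, 38.2, 53.2 and 72.0 FPKM, and with its fragments added the ratios were 0.591 and 1.11.

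Ldha (ENSMUSG00000063229, chr7:46841475-46855627, plus strand), the lactate dehydrogenase subunit that favours lactate, was at 162, 87.9, 138 and 103 FPKM. Both baicalin libraries were below both DMSO libraries. The ratios were 0.542 (0.525 to 0.559) and 0.747 (0.724 to 0.771), log2 changes of -0.88 and -0.42, so Ldha had the lowest log2 change of the members under each label. Ldhb, the subunit that favours the reverse reaction, was at 16.3, 18.8, 48.3 and 35.0 FPKM. The ratio of Ldha to Ldhb per length was 9.94 (9.09 to 10.9) with basal DMSO and 4.68 (4.30 to 5.10) with basal baicalin. It was 2.86 (2.71 to 3.03) and 2.95 (2.77 to 3.14) under the luminal label, where the intervals of the treatments overlapped.

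**Figure D4:**
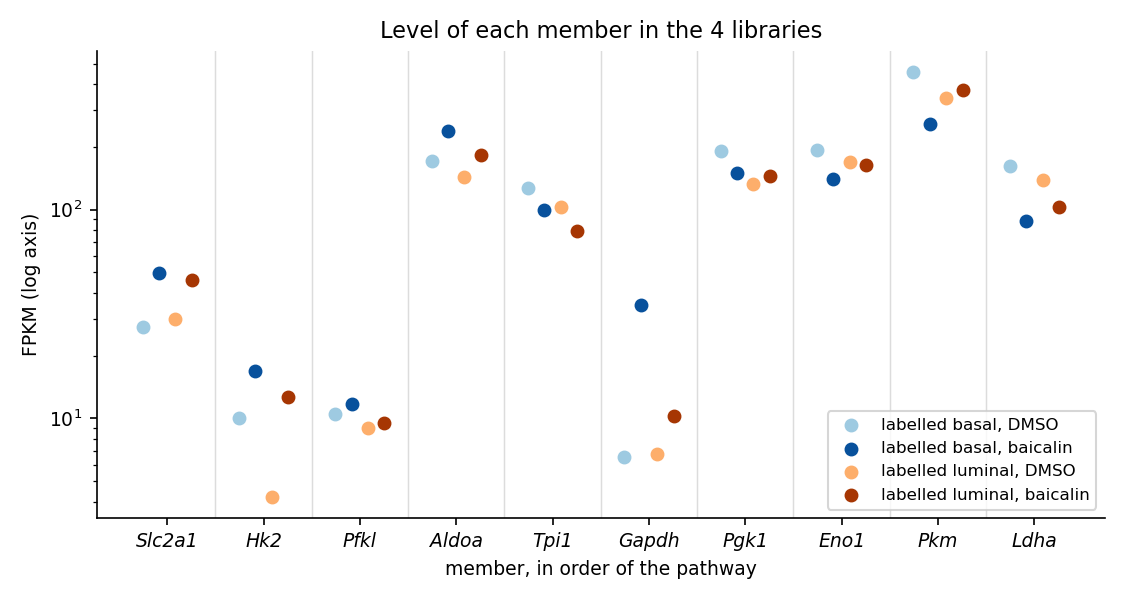
FPKM of each member (vertical, log axis) in pathway order, 1 point per library, coloured by label and treatment. Both baicalin points lie above both DMSO points for Slc2a1, Hk2, Aldoa and Gapdh, and below them for Tpi1 and Ldha, and Pkm is the highest member in all 4 libraries, at 258 to 456 FPKM.

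The order of the members was much the same in every library. Pkm led, followed by Eno1, Pgk1, Aldoa, Ldha and Tpi1 in changing places, then Slc2a1, and Hk2, Pfkl and Gapdh were the lowest 3. Neighbours that did not differ beyond counting error were Eno1 and Pgk1 with basal DMSO (ratio 1.01, 0.987 to 1.04), Pfkl and Hk2 with basal DMSO (1.05, 0.973 to 1.14), and Gapdh and Pfkl with luminal baicalin (1.08, 0.988 to 1.18). The members together held 0.538% of all fragments with basal DMSO, with a Wilson 95% interval of 0.535 to 0.541%. They held 0.413% (0.410 to 0.416%) with basal baicalin, 0.430% (0.427 to 0.433%) with luminal DMSO and 0.451% (0.448 to 0.453%) with luminal baicalin. The basal DMSO library was the highest. Pkm alone made up 42.4, 31.3, 39.9 and 41.4% of the members' fragments.

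The libraries of the 2 labels were also compared within each treatment. With DMSO 8 of 10 members were lower under the luminal label, as were 8447 of all 17787 genes, with a median log2 difference of -0.24 against 0.01 for all genes. Of the 6643 genes at 5 FPKM or more in every library, 3634 were lower, with a median of -0.05. Hk2, 2.37-fold lower with a log2 difference of -1.08, was the member past the threshold, which 3.86% of all genes passed in this direction and 4.71% in the other. Slc2a1 and Gapdh were the exceptions, with ratios of 1.09 (1.03 to 1.16) and 1.04 (0.919 to 1.17), the latter within counting error. With baicalin 7 of 10 were lower under the luminal label, and Eno1, Pkm and Ldha were higher, with Pkm at a ratio of 1.44 (1.42 to 1.47). Of all genes 9741 were lower there too, and 3936 of the 6643 at 5 FPKM or more, with medians of -0.03 and -0.07 against -0.20 for the members. Gapdh, 3.40-fold lower, was the member past the threshold, against 2.99% of all genes in this direction and 5.24% in the other. The basal marker genes were higher under the luminal label with either treatment, as given above. These comparisons use the same libraries as those of baicalin with DMSO.

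The difference of the baicalin change between the labels, luminal minus basal, was past the threshold for Gapdh, at -1.72, where 2.65% of all genes were lower by as much and 4.41% higher. Pkm followed at 0.94, a ratio of ratios of 1.92 (1.88 to 1.96), and Hk2 at 0.70, with a ratio of ratios of 1.80 (1.59 to 2.03). Pgk1, Eno1 and Ldha lay between 0.41 and 0.48. Tpi1 and Pfkl, at -0.04 and -0.07, were within counting error. The median over the members was 0.19, and over all genes -0.03.

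Of the steps with no member, phosphoglucose isomerase, encoded by Gpi1, was above its DMSO level under both labels. Gpi1 was at 46.2, 65.0, 54.9 and 59.3 FPKM, log2 changes of 0.48 and 0.11. The mutase Pgam1 was at 59.3, 57.5, 50.5 and 58.0 FPKM, log2 changes of -0.04, which was within counting error, and 0.20. In the list of 24 other glycolysis genes, 18 were tested, none was called under the basal label and 1, Aldoc, fell under the luminal label. Their median log2 change was 0.02 under each label. For this list and those below, the shares of all genes that rose and fell were 2.15% and 3.33% under the basal label. Under the luminal label they were 2.37% and 1.59%.

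Of 9 tested glucose transporter genes outside the members, Slc5a1, which imports glucose with sodium, rose under the luminal label, at 1.79, 4.05, 1.35 and 6.12 FPKM and log2 changes of 0.85 and 1.60. The list medians were 0.02 and -0.05. None of 5 regulators of fructose-2,6-bisphosphate passed, with medians of 0.05 and 0.13, and the most abundant, Tigar, was at 6.46, 6.51, 3.62 and 5.32 FPKM. Of 3 glycerol-3-phosphate dehydrogenase genes, which branch from triose phosphate, Gpd1 and Gpd1l fell under the luminal label, by 1.13 and 1.54 on the log2 scale. Gpd1l was at 8.73, 4.13, 10.9 and 3.12 FPKM, and the list medians were -0.25 and -1.13. The most abundant of these, Gpd2, was at 16.3, 13.5, 8.56 and 9.55 FPKM.

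Among 5 tested genes of the reverse route, gluconeogenesis, 1 rose and 1 fell under the basal label and 1 fell under the luminal label, with medians of 0.51 and 0.05. Fbp1, whose enzyme opposes phosphofructokinase, was at 1.10, 0.116, 16.2 and 1.02 FPKM, and fell by 3.09 on the log2 scale under the luminal label, from 534 to 36 fragments. Pcx, pyruvate carboxylase, was at 1.85, 5.19, 4.20 and 4.38 FPKM and rose under the basal label, by a log2 change of 1.12. The gene that fell there was Fbp2, at 2.23 and 0.503 FPKM, named because the count is small. The most abundant of the list on average, G6pc3, was between 9.01 and 13.2 FPKM.

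Of 13 genes that set the fate of pyruvate, 1 rose and 1 fell under the basal label and 1 rose under the luminal label. Pdk4, a kinase that shuts off pyruvate dehydrogenase, was at 4.73, 10.6, 1.81 and 10.1 FPKM and rose under both labels, by log2 changes of 1.02 and 1.98. As for Hk2, the luminal DMSO library was the lowest. Its relative Pdk3 fell under the basal label, at 9.60, 4.12, 12.0 and 7.34 FPKM, by 1.05 on the log2 scale. The most abundant of the list, the pyruvate dehydrogenase subunit Pdha1, was at 74.5, 63.9, 80.8 and 69.4 FPKM, and the list medians were -0.07 and -0.20. Among 5 tested genes for lactate export, Emb, a partner protein of monocarboxylate transporters, fell under the basal label from 23.0 to 3.18 FPKM, by 2.52 on the log2 scale, and was at 79.7 and 63.8 FPKM under the luminal label. Its relative Bsg, the main partner, stayed within 132 to 145 FPKM in all libraries, and the list medians were -0.37 and 0.03.

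**Figure D5:**
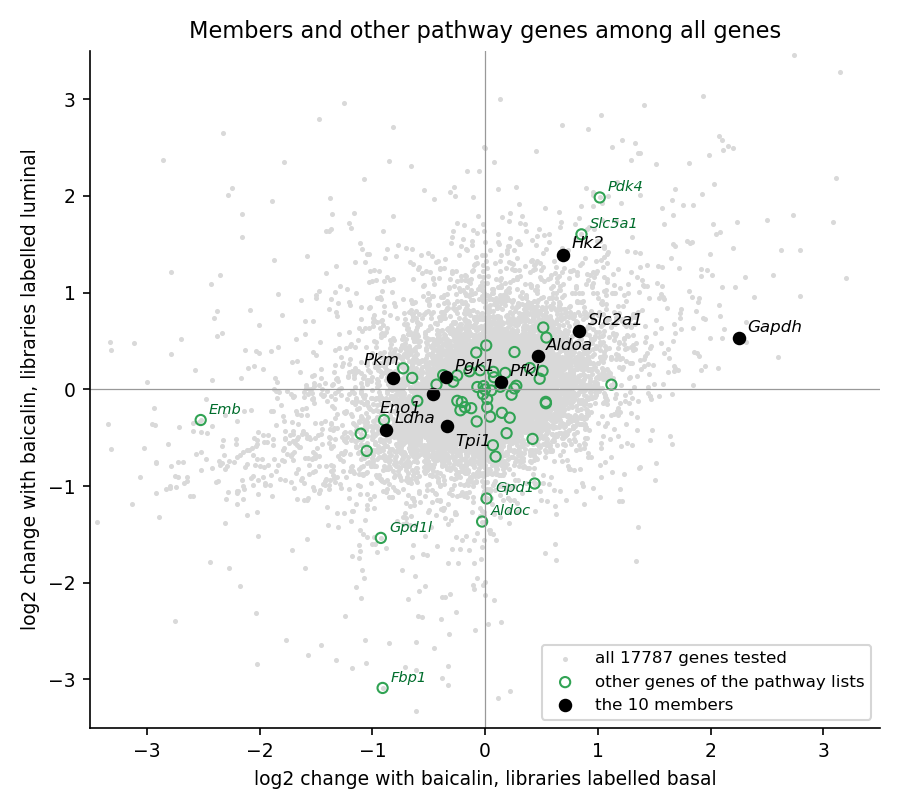
Log2 change with baicalin in the libraries labelled basal (horizontal) and luminal (vertical) for 17787 genes (grey), the tested genes of the surrounding pathway lists (green rings) and the 10 members (black). Gapdh lies farthest to the right at 2.25, Hk2 is the highest member at 1.39, and Pgk1 and Pkm lie left of 0 and above 0, while 9 genes fall outside the axes.

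Genes that act on the pathway from outside were given by list as well. Of 16 transcription factors and other regulators, 3 rose under the basal label, Myc, Egln3 and Txnip, and 1 rose and 1 fell under the luminal label, Myc and Mycl, with list medians of 0.26 and -0.24. Of 18 hypoxia response genes, 3 rose under each label and none fell, with medians of 0.60 and -0.09. Of all genes, 2.15% rose and 3.33% fell under the basal label, and 2.37% rose and 1.59% fell under the luminal label. Vegfa rose under both labels, at 27.3, 107, 17.7 and 75.1 FPKM. Adm, at 16.7, 32.3, 2.97 and 24.6 FPKM, and P4ha2 rose under the luminal label. Bnip3 and Egln3, which was counted among the regulators too, rose under the basal label. Textbook targets of HIF-1 among the members include Slc2a1, Hk2, Pgk1 and Ldha, which is not a full list. Slc2a1 and Hk2 lay above and Ldha below their DMSO level under both labels. Pgk1 lay below its DMSO level under the basal label and above it under the luminal label, at -0.35 and 0.13. A part of HIF-1 in these changes was not tested.

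The mean profile of the members over the 4 libraries was also compared with single genes. It used the 9 members with at least 5 FPKM in all libraries, which leaves out Hk2, on log2(FPKM + 1) centred per gene. Of 6643 genes, Rybp, Rrn3, Map3k4 and Sugp1 were nearest, at Euclidean distances of 0.01 to 0.04. The members themselves lay at 0.06, for Pfkl, to 1.67, for Gapdh. The profile depended on Gapdh, whose level is uncertain. The mean of the 9 members was 0.06, 0.15, -0.16 and -0.05 on the centred log2 scale, and that of the 8 without Gapdh, an alternative chosen after seeing the data, was 0.15, -0.02, -0.09 and -0.04. Without Gapdh the basal baicalin library was thus below the basal DMSO library, and 0 of the 5 nearest genes were shared with those of the 9 members.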

How the data were processed

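Fragments per gene were counted and scaled to FPKM by the authors with featureCounts, after HISAT2 alignment to GRCm38 with the Ensembl annotation. The submitters' processing notes also list Bowtie 0.12.2 and mm8, with no role. The kit was stranded, but the strand setting of the counting and the handling of fragments with several positions are not given in the sources used here.

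The members and the gene lists were chosen with earlier results of these data known. As in the study, genes above 0 FPKM in all 4 libraries were kept and called past a log2 change of 1, after a pseudocount of 1 FPKM. The study's t-test needs replicates, so no test was made. Exon lengths and positions came from GENCODE M21 on GRCm38. Low values lie on multiples of what 1 fragment is worth on a gene of that length, which gave the depth of each library. Of genes under 100 fragments, 98.2 to 98.5% came out whole within 0.05 fragments. The recovered fragments served for intervals and sums, not for a count test.

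Copies were found with blastn 2.17.0. Named besides the members were Gpi1, Pgam1, genes of the 7 surrounding lists past the threshold that reach 5 FPKM, the most abundant gene of each list, the 3 largest changes per label of the regulator and hypoxia lists, markers, and the 5 nearest profiles, of which 1 is not reported here. Named outside this rule were Slc2a3, the isoenzymes Hk1, Pfkm, Pfkp, Ldhb and Eno1b, and Fbp2 and Gm49759. Alternatives were 2 other pseudocounts, 2 filters, TPM, 2 centrings, 2 thresholds and sums with copies. The computation was tested on simulated data. The software was Python 3.11.15 with scipy 1.17.1, pandas 2.3.3, numpy 2.4.6 and, for the plots, matplotlib 3.10.9. The study's E2 + PG libraries were not analysed here.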

Additional observations from a re-analysis of the deposited data

Results flagged for a closer look

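Among the members, Pgk1 and Pkm had log2 changes with baicalin of opposite sign under the labels. For Pgk1 the change was -0.35 under the basal label and 0.13 under the luminal label, a difference of 0.48, and for Pkm it was -0.82 and 0.12, a difference of 0.94. These differences were not tested, since each condition has 1 library. Opposite signs occurred in 2 of 10 members, and in 40.6% of all genes tested. Outside the members, only the genes named by rule from the other lists were searched, for changes beyond counting error under both labels. Of these, the mitochondrial glycerol-3-phosphate dehydrogenase gene Gpd2 had changes of -0.25 and 0.14, a difference of 0.39. Higher with baicalin under the basal label and lower under the luminal label were Bnip3, Egln3 and Txnip. Bnip3 was at 1.12 and -0.27, a difference of -1.39. The prolyl hydroxylase gene Egln3 was at 1.07 and -0.75, a difference of -1.82. Txnip, whose protein restrains glucose uptake, was at 1.38 and -0.81, a difference of -2.18. None of these was tested. Other genes, such as Hk1 and Ldhb, also moved in opposite directions under the labels and were outside this search.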

How the results depend on the processing

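No paired analysis was possible because each condition has 1 library, and leaving out a library leaves no comparison. Over 8 alternatives, 396 of 400 member values kept their sign, and the 4 that did not were within 0.05 of 0 on the log2 scale. Many of these values could not change sign. The 2 filters left every member value as it was, and another pseudocount cannot reverse a change between 2 libraries. Members without copies kept the same fragments in the sums with copies. The count of kept signs therefore overstates how far the signs were put to a test. The other alternatives, leaving out Gapdh and adding the gene that overlaps Pkm, were chosen after seeing the data. Scaling to TPM moved the members' median for luminal against basal with DMSO from -0.24 to -0.35, and centring on genes at 5 FPKM or more moved it to -0.19. Under TPM the median of those genes itself shifted by -0.11, and that of all genes tested by -0.07. At a threshold of 0.5, the members called numbered 5 and 3 for baicalin under the basal and luminal labels, with the shares of all genes given above. For luminal against basal with DMSO, 0 were higher and 2 lower, against 14.2% and 12.3% of all genes. With baicalin 1 was higher and 1 lower, against 12.6% and 12.2%. For the difference 2 were higher and 1 lower, against 11.1% and 12.3%. At a threshold of 2 there were 0 in all of these but baicalin under the basal label, where 1 member, Gapdh, passed. The shares of all genes past that threshold are not given here, so nothing is read from this count. Without Gapdh there were 0 for baicalin under the basal label, for the labels with baicalin and for the difference, with medians of -0.34 under the basal label and 0.41 for the difference. Leaving it out of the mean profile put basal baicalin below basal DMSO, at -0.02 against 0.15. The share of all genes past the threshold depended on the pseudocount, and with 0.1 FPKM 6.31% rose and 7.32% fell under the basal label.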
